A study of Mus musculus with 16 samples.

Results

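The Ruminococcaceae are a family of strictly anaerobic Firmicutes of the order Oscillospirales, and 47 of the 1330 amplicon sequence variants (ASVs) of this 16S rRNA gene data set were assigned to it. Members were chosen by 1 criterion, the family name in the deposited taxonomy, with earlier results of these data known. Together they held 34509 of 948231 reads, or 3.64%. ASVs are numbered by total reads, so that asv13 is the most abundant of the family. The confidence of the deposited assignments, a fraction between 0 and 1, was at least 0.710, with a median of 0.979, and was at least 0.9 for 38 members.

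Ruminococcaceae live mainly in the caecum and colon, where they take part in the breakdown of plant fibre and the formation of short-chain fatty acids. Ruminococcus species include degraders of cellulose and resistant starch, and Eubacterium siraeum is known for binding and degrading starch and other plant polysaccharides. Anaerotruncus species form acetate and butyrate, the latter a main fuel of colon epithelial cells. Faecalibacterium, the best known butyrate producer of the family in people, was not among the names in the feature table.

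The libraries came from stool of wild-type (WT) mice and of mice without Msc (KO), the gene of the transcription factor musculin, collected in health at time point 0 or in colitis at time point 1. This gave 4 groups of 4 libraries (WT healthy, KO healthy, WT DSS, KO DSS), each numbered 0 to 3 as in the labels, which spell the colitis DDS-induced_col, DSS being dextran sulfate sodium, an agent that damages the colon lining. The study asked what the knock-out does to the stool bacteria with and without colitis. Strain, age, sex, cage, DSS dose, the knock-out allele and any link of replicate numbers to animals are not given in the sources consulted: genotype and cage cannot be told apart, nor can condition and time point, and p-values measure only the spread between these samples.

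Libraries held 49253 to 70577 reads, so that 3 reads, the limit that a count of 0 allows, came to 0.00425% to 0.00609% of a library. The 95% Wilson intervals of the family share reached at most 0.235 percentage points to either side, which covers counting error only, since amplicon reads are not independent molecules. WT DSS replicate 1 stood apart with 844 ASVs, 711 of them in no other library and holding 17.1% of its reads, against 172 to 280 ASVs in the other libraries. Without ASVs found in only 1 library the WT DSS family share was 3.43% in place of 3.29%.

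The family was smallest in KO healthy mice and largest in KO DSS mice. In WT healthy replicates 0 to 3 it held 4.55%, 4.81%, 3.15% and 2.75% of reads, a mean of 3.81% ± 1.02 (SD, n = 4). In KO healthy replicates it held 0.878%, 0.773%, 0.760% and 1.65%, a mean of 1.02% ± 0.429 (SD, n = 4). Every KO healthy library was thus below every WT healthy library. WT DSS replicates gave 2.71%, 3.28%, 3.76% and 3.42% (3.29% ± 0.436, SD, n = 4) and overlapped with WT healthy. KO DSS replicates gave 5.01%, 4.33%, 8.69% and 7.35% (6.34% ± 2.03, SD, n = 4), above every WT DSS and every KO healthy library. Such separation was common among the 26 families: KO and WT did not overlap for 19.2% of them in healthy mice and for 26.9% under DSS, and DSS and healthy did not overlap for 30.8% in WT and 38.5% in KO mice. A share cannot tell more bacteria of a family from fewer bacteria of others, or from more 16S gene copies per cell.

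The order of the groups was similar with Firmicutes reads as the denominator, at 6.55% ± 1.92 in WT healthy, 1.84% ± 0.749 in KO healthy, 7.13% ± 0.837 in WT DSS and 12.1% ± 3.68 in the KO DSS group (SD, n = 4 each), except that WT DSS now had a higher mean than WT healthy. Of the reads of the order Oscillospirales, the family made up 44.4% in WT healthy, 26.3% in KO healthy, 39.2% in WT DSS and 45.7% in the KO DSS group on average. A library held 17 to 27 Ruminococcaceae ASVs in WT healthy, 14 to 18 in KO healthy, 13 to 20 in WT DSS and 20 to 24 in the KO DSS group.

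**Figure D1:**
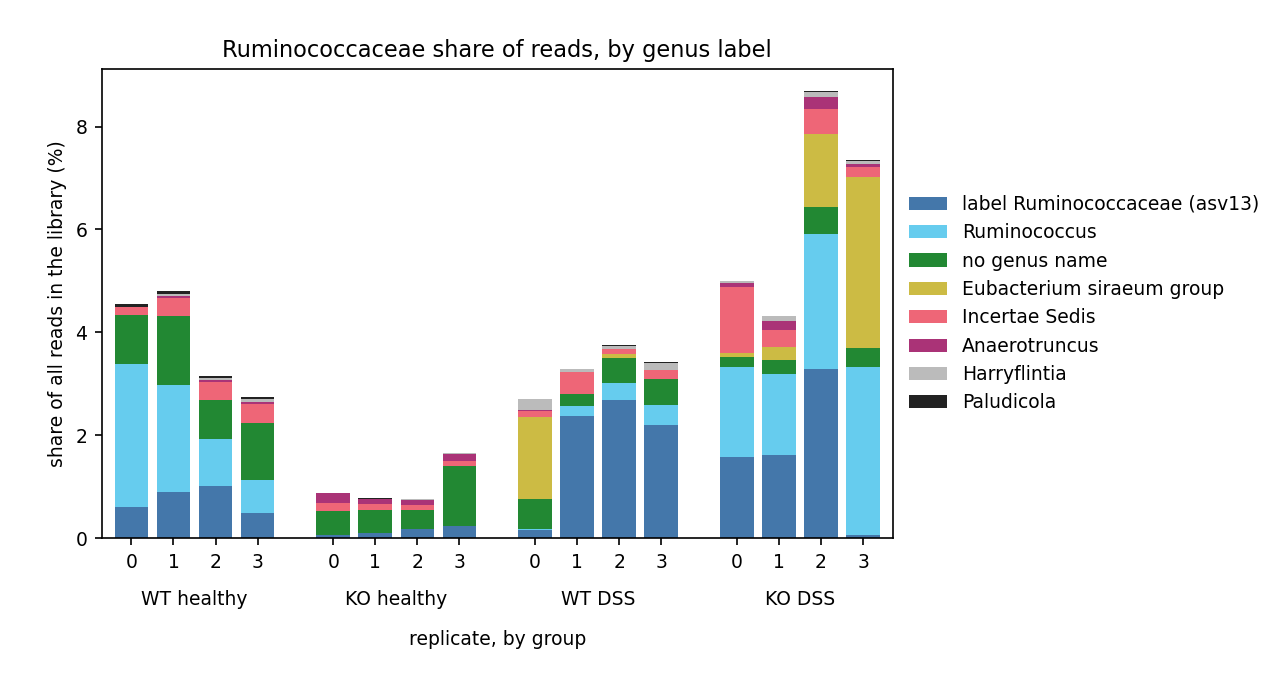
Share of all reads in each library (%) held by Ruminococcaceae, stacked by genus label, for replicates 0 to 3 of the 4 groups. KO healthy bars reach at most 1.65% and hold no Ruminococcus, while KO DSS bars reach 4.33% to 8.69%.

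The family was divided into 8 genus labels. Of these, the name Ruminococcaceae itself, used at genus rank for asv13 alone, held 30.4% of the family's reads and Ruminococcus, with 4 ASVs, 28.7%. Sequences without a genus name (19 ASVs) held 16.5%, the [Eubacterium]_siraeum_group (2 ASVs) 11.7%, and Incertae_Sedis, a name for sequences of uncertain placement (12 ASVs), 8.57%. Anaerotruncus (4 ASVs) held 2.04%, Harryflintia (3 ASVs) 1.69% and Paludicola (2 ASVs) 0.467%. Features reaching 5 reads in 4 or more libraries entered edgeR's quasi-likelihood fit over all 16 libraries, with Benjamini-Hochberg adjustment over all 308 ASVs or 66 genus labels tested and a threshold of 0.05. All 8 labels and 28 of the 47 ASVs, with 91.9% of family reads, were tested, and 19 ASVs were too rare or in too few libraries. Of the 28, 5 (asv36, asv37, asv112, asv383 and asv397) reached 5 reads in libraries of 1 group only and so entered the test through the group where they are high. Their differences are descriptions. Asv75 met the filter through KO DSS libraries and asv136 through WT DSS libraries, with other reads in the same genotype only. The differences of these ASVs between genotypes, and that of asv75 between conditions, are descriptions as well. The siraeum group label had reads in DSS libraries only and entered through them, so its differences between DSS and healthy mice are descriptions too.

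Ruminococcus, a genus with polysaccharide degraders, had no read in any KO healthy library and its highest mean in KO DSS mice. Its share was 2.78%, 2.08%, 0.923% and 0.646% in WT healthy replicates 0 to 3 and 0 in all 4 KO healthy replicates. In WT DSS replicates it was 0.0182%, 0.186%, 0.330% and 0.390%, and in KO DSS replicates 1.76%, 1.58%, 2.64% and 3.28%. In none of the 4 pairwise comparisons did the groups overlap: KO DSS was above WT DSS and KO healthy, WT healthy above WT DSS, and KO healthy below all.

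In healthy mice Ruminococcus was at least 295-fold lower in KO than in WT (edgeR adjusted p = 6.29e-05); such bounds set the mean of the higher group against the share that 3 reads per library would give in the group without reads. It rose at least 425-fold from KO healthy to KO DSS (adjusted p = 3.84e-05). Both comparisons share the KO healthy libraries. Under DSS it was higher in KO than in WT, by 2.96 ± 0.88 (SE) on the log2 scale (mean shares of 2.32% and 0.231%, edgeR adjusted p = 0.0399). That call was lost without WT healthy replicate 1, WT DSS replicate 1 or 3, or KO DSS replicate 0, 2 or 3, where the adjusted p reached at most 0.0816. It was also lost with the replicate number as a block in the edgeR fit (adjusted p = 0.120). From WT healthy to WT DSS the difference was -2.21 ± 0.85 (log2, SE), which did not pass (edgeR adjusted p = 0.0845), although it passed with total counts only, with DESeq2 and with no filter. The interaction, the difference between KO and WT under DSS less the same difference in health, was 15.69 on the log2 scale (edgeR adjusted p = 3.19e-05); this fitted size depends on how empty libraries are treated and is not a fold.

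**Figure D2:**
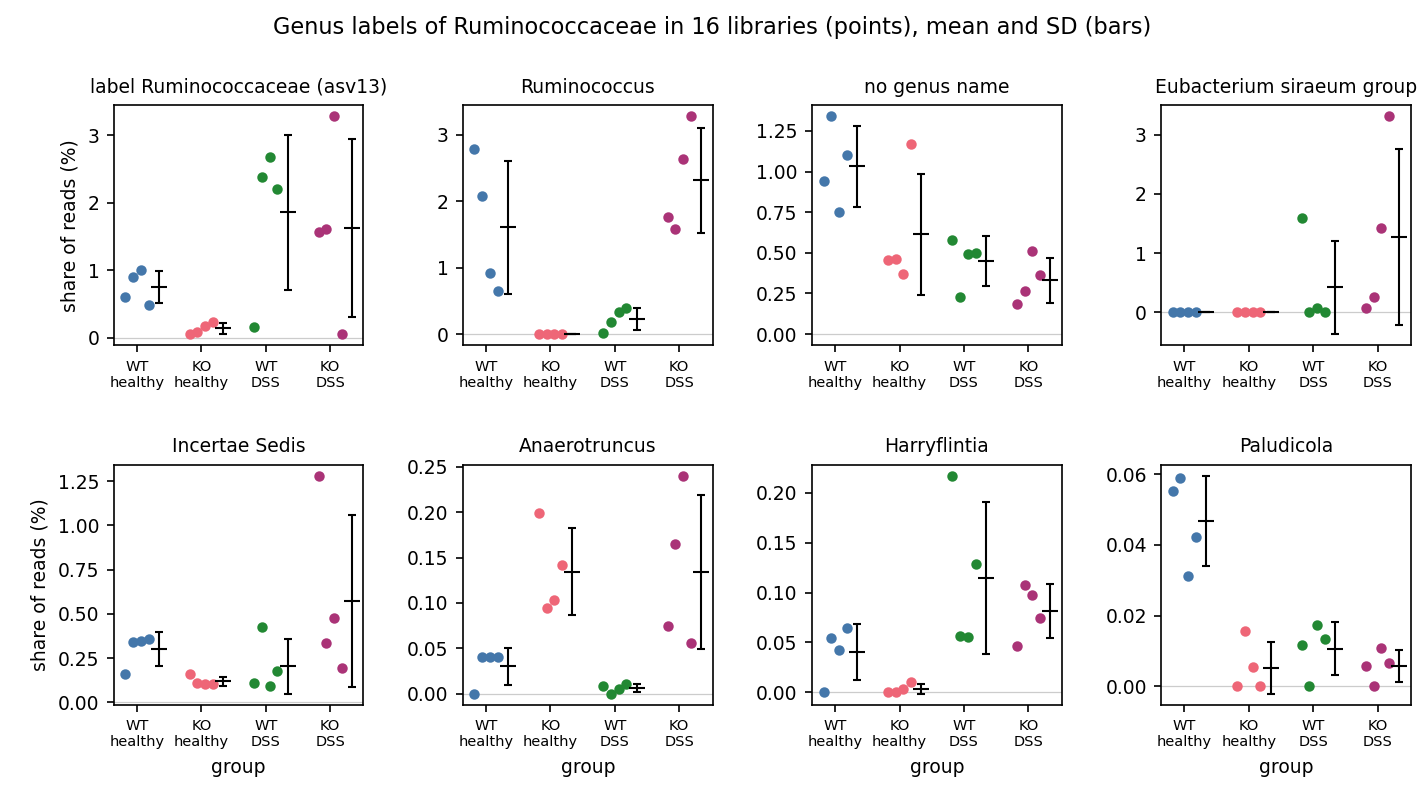
Share of reads (%) of each genus label in every library (points, by group), with the group mean and SD (bars, n = 4); axes differ between panels. Ruminococcus lies at 0 in all KO healthy libraries, and the [Eubacterium]_siraeum_group at 0 in all healthy libraries of both genotypes.

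The 4 Ruminococcus ASVs did not follow the label together. The most abundant, asv24, held 2.29%, 0.680%, 0.923% and 0.646% of WT healthy reads, none in KO healthy, 0.0182%, 0.186%, 0.330% and 0.390% in WT DSS and 0.866%, 0.319%, 0.725% and 0.927% in KO DSS replicates. It made up the whole label in WT DSS. It was at least 208-fold lower in KO than in WT healthy mice (edgeR adjusted p = 0.000674) and rose at least 130-fold from KO healthy to KO DSS (adjusted p = 0.000235), with an interaction of 13.61 (log2, adjusted p = 0.000471). WT healthy replicate 0 carried much of its mean, 1.14% with and 0.750% without that library. KO and WT did not differ past the threshold for asv24 under DSS (1.31 ± 0.88, log2, SE, edgeR adjusted p = 0.416), nor did WT DSS and WT healthy (-1.84 ± 0.89, adjusted p = 0.163).

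Asv36 and asv112 were read in KO DSS libraries only, beside asv24. Asv36 held 0.778%, 0.919%, 1.53% and 2.03% of reads there and led the label in 3 of the 4 libraries, with 58.0% to 61.8% of its reads. Asv112 held 0.116%, 0.343%, 0.383% and 0.326%. Both were present in all 4 libraries of 1 group and absent from the other 12. They entered the test through that group alone, so the differences below are descriptions. Against WT DSS, asv36 lay at least 266-fold higher (adjusted p from edgeR 0.00162) and asv112 at least 58.9-fold higher (0.00421). Against KO healthy the bounds were 241-fold (adjusted p = 0.000682) and 53.5-fold (adjusted p = 0.00236). With any KO DSS library left out, both were below the filter of 4 libraries and were not tested. The fourth Ruminococcus, asv90, was read only in WT healthy replicates 0 and 1, at 0.490% and 1.40%, and was not tested.

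Asv13, the 1 ASV named Ruminococcaceae at genus rank, was read in all 16 libraries and was the largest member overall. It held 0.607%, 0.899%, 1.01% and 0.494% in WT healthy and 0.0639%, 0.0945%, 0.176% and 0.229% in KO healthy replicates. WT DSS replicates gave 0.169%, 2.38%, 2.68% and 2.20%, and KO DSS replicates 1.57%, 1.61%, 3.28% and 0.0562%. In each DSS group 3 libraries lay above every healthy library and 1 library lay below every WT healthy library. From KO healthy to KO DSS it rose by 3.61 ± 0.97 (log2, SE) in the fit over genus labels, 11.6-fold between mean shares (edgeR adjusted p = 0.00663), and by 3.50 ± 0.97 in the fit over ASVs (adjusted p = 0.0144), and the groups overlapped through KO DSS replicate 3. Both calls were lost with the replicate block (edgeR adjusted p = 0.0981 over genus labels and 0.0960 over ASVs). Without KO DSS replicate 2 the KO DSS mean was 1.08% in place of 1.63%. The other differences of asv13 did not pass, at -2.13 ± 0.91 for KO against WT in healthy mice (edgeR adjusted p = 0.196, groups without overlap), 1.95 ± 0.90 for DSS against healthy in WT (adjusted p = 0.143) and -0.47 ± 0.87 for KO against WT under DSS (adjusted p = 0.791).

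The [Eubacterium]_siraeum_group, named after a starch and fibre degrader, was read in DSS libraries only, and each genotype had an ASV of its own. In WT DSS asv86 held 1.60% of replicate 0 and 0.0817% of replicate 2 and was absent from replicates 1 and 3. In KO DSS asv37 held 0.0822%, 0.261%, 1.43% and 3.31% of replicates 0 to 3. The 2 ASVs never shared a library. From healthy to DSS the label rose at least 83.0-fold in WT (edgeR adjusted p = 0.0251), with reads in 2 of 4 libraries and a mean of 0.421% that was 0.0272% without replicate 0, and at least 233-fold in KO mice (adjusted p = 0.0116), with reads in 4 of 4 libraries and a mean of 1.27% that was 0.592% without replicate 3. Both rises are descriptions, since the label passed the filter through DSS libraries alone. The WT call was lost without any 1 of 6 libraries, all 4 of WT healthy and WT DSS replicates 0 and 2 (adjusted p at most 0.0798). The label did not differ past the threshold between KO and WT under DSS (1.33 ± 1.87, log2, SE, edgeR adjusted p = 0.721), whereas asv37 was at least 257-fold higher in KO (adjusted p = 0.0132). Asv37 was also at least 233-fold higher than in KO healthy mice (adjusted p = 0.00717). This ASV entered the test through KO DSS alone, so its differences are descriptions.

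Libraries low in asv13 under DSS were those richest in the siraeum group, a pairing noticed after the values were seen. Their summed share was 1.77%, 2.38%, 2.76% and 2.20% in WT DSS and 1.65%, 1.88%, 4.72% and 3.37% in KO DSS replicates 0 to 3. WT DSS replicate 0, with 0.169% asv13, had 1.60% asv86, and KO DSS replicate 3, with 0.0562% asv13, had 3.31% asv37. KO DSS replicate 2 was high in both.

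The Incertae_Sedis label rose under DSS in KO mice, mostly through 1 ASV, asv75. The label held 0.159%, 0.339%, 0.347% and 0.360% in WT healthy and 0.157%, 0.108%, 0.101% and 0.104% in KO healthy replicates, against 0.109%, 0.428%, 0.0938% and 0.179% in WT DSS and 1.28%, 0.334%, 0.476% and 0.195% in KO DSS. KO DSS lay above KO healthy in every library and overlapped with WT DSS. The rise from KO healthy to KO DSS was 2.39 ± 0.67 (log2, SE), 4.86-fold between means (edgeR adjusted p = 0.00885), and was lost with no filter (adjusted p = 0.640) and without KO DSS replicate 0, where the log2 change was 1.23 and the KO DSS mean 0.335% in place of 0.572%. That call was also lost with the replicate block. KO against WT did not pass, at -0.98 ± 0.64 in healthy mice (edgeR adjusted p = 0.419) and 1.43 ± 0.65 under DSS (adjusted p = 0.164). Without WT DSS replicate 1, which lowers the WT DSS mean from 0.203% to 0.127%, the difference under DSS did pass.

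In KO DSS replicates 0 to 2 the Incertae_Sedis reads were mostly asv75, which held 1.21%, 0.273%, 0.370% and 0.0264% of reads in replicates 0 to 3. Mean shares fell from KO healthy to KO DSS for asv182 (0.0405% to 0.0188%), asv192 (0.0271% to 0.0225%) and asv267 (0.0228% to 0). They rose for asv195 (0.0229% to 0.0419%) and asv197 (0 to 0.0184%). The remaining Incertae_Sedis ASVs had no read in KO mice. Outside KO DSS, asv75 had reads only in KO healthy replicate 1 (0.0177%). Its share was at least 95.0-fold that in WT DSS (edgeR adjusted p = 0.0175) and higher than in KO healthy mice by 6.67 ± 1.96 (log2, SE, adjusted p = 0.0323), a size that rests on 9 reads in 1 KO healthy library and a call lost without KO healthy replicate 2 or 3 or KO DSS replicate 0. Without the last of these its mean was 0.223% in place of 0.470%. Asv75 met the filter through KO DSS libraries, where it is high, so both differences are descriptions. WT DSS had asv165 in its place, at 0.420%, 0.0678% and 0.0918% in replicates 1 to 3 and none in replicate 0 or in any other group. Its mean of 0.145% was 0.0532% without replicate 1, and it was in too few libraries to be tested.

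Among the smaller Incertae_Sedis members, asv197 had 23, 33, 102 and 44 reads in WT healthy and none in KO healthy libraries, 15 in WT DSS replicate 3 and 19, 14 and 13 in KO DSS replicates 0, 2 and 3. It was at least 15.1-fold lower in KO than in WT healthy mice (edgeR adjusted p = 0.0404) and at least 3.38-fold higher in KO DSS than in KO healthy (adjusted p = 0.0325, groups overlapping), with an interaction of 9.95 (log2, adjusted p = 0.0468). These calls were lost without 11, 5 and 15 of the 16 single libraries. All 3 were lost with no filter, and the interaction also with RLE factors. Asv397, with 12, 16, 14 and 10 reads, was confined among the 16 libraries to WT healthy, at least 4.10-fold above KO healthy (edgeR adjusted p = 0.0484) and at least 4.51-fold above WT DSS (adjusted p = 0.0259). It entered the test through WT healthy alone, so both differences are descriptions. The difference from KO healthy was lost without any 1 library of KO healthy or KO DSS, that from WT DSS without WT DSS replicate 1, and both with DESeq2 and with no filter; with RLE factors the first was lost. Asv267, with 24, 9, 10 and 8 reads in KO healthy libraries and none in KO DSS, fell at least 4.62-fold there (adjusted p = 0.0129), a call lost with no filter. Asv182, which the deposited species name calls Acutalibacter muris, had 4 reads in WT DSS, all in replicate 0, and -4.79 ± 1.76 (log2, SE) against WT healthy did not pass (edgeR adjusted p = 0.0727), although it did without that library (adjusted p = 0.0364) and with DESeq2 (0.0167).

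Anaerotruncus, the butyrate-forming genus, was higher in KO than in WT mice under DSS. It held 0, 0.0406%, 0.0404% and 0.0407% in WT healthy and 0.199%, 0.0945%, 0.103% and 0.142% in KO healthy replicates. WT DSS replicates gave 0.00827%, 0, 0.00521% and 0.0105%, and KO DSS replicates 0.0751%, 0.165%, 0.240% and 0.0562%. All 8 KO libraries were above all 8 WT libraries. Under DSS the difference was 4.09 ± 1.06 (log2, SE), 22.3-fold between means (edgeR adjusted p = 0.0181), and was lost with no filter (adjusted p = 0.176) and with the replicate block. In healthy mice it was 2.52 ± 0.97 (4.42-fold between means) and did not pass (edgeR adjusted p = 0.169), although it did with DESeq2. From WT healthy to WT DSS it was -1.54 ± 0.99 (edgeR adjusted p = 0.253).

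One ASV, asv126, made up most of Anaerotruncus in KO mice. It had 89, 48, 58 and 65 reads in KO healthy and 46, 89, 92 and 34 in KO DSS libraries, against 13 reads in WT healthy replicate 2, 3 in WT DSS replicate 2 and none in the other 6 WT libraries. Under DSS it was higher in KO (5.83 ± 1.70, log2, SE, edgeR adjusted p = 0.0274), a call lost with no filter and without WT DSS replicate 0, 1 or 3 or KO DSS replicate 1. The size rests on the 3 reads of WT DSS replicate 2, without which it was 9.07. In healthy mice the difference was 4.73 ± 1.57 (log2, SE) and did not pass (edgeR adjusted p = 0.0845). It passed there with DESeq2 and with the replicate block (edgeR adjusted p = 0.0446). It also passed without WT healthy replicate 2, the only WT healthy library with reads.

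Harryflintia was nearly absent in KO healthy mice and present in all DSS libraries. Its share was 0, 0.0548%, 0.0420% and 0.0648% in WT healthy and 0, 0, 0.00355% and 0.0108% in KO healthy replicates. WT DSS gave 0.217%, 0.0563%, 0.0556% and 0.129%, and KO DSS 0.0468%, 0.108%, 0.0974% and 0.0744%. Every KO DSS library exceeded every KO healthy one, a rise of 4.54 ± 1.18 (log2, SE), 22.8-fold between means (edgeR adjusted p = 0.00571), lost with no filter; without KO healthy replicate 3 the KO healthy mean was 0.00118% in place of 0.00359%. The other differences did not pass: -3.12 ± 1.13 for KO against WT in healthy mice (edgeR adjusted p = 0.169), 2.19 ± 1.02 for DSS against healthy in WT (adjusted p = 0.143) and -0.76 ± 0.98 for KO against WT under DSS (adjusted p = 0.687). Of its ASVs, asv156 had no read in KO healthy, 17, 13 and 32 reads in WT healthy replicates 1 to 3, 69, 23, 19 and 75 in WT DSS and 22, 51, 45 and 27 in KO DSS. It was at least 4.72-fold lower in KO than in WT healthy mice (edgeR adjusted p = 0.0209), a call lost with no filter and without KO healthy replicate 1 or 3, and at least 11.2-fold higher in KO DSS than in KO healthy (adjusted p = 0.00172). Its interaction of 6.12 (log2, adjusted p = 0.0468) was lost with no filter, with RLE factors and without any 1 of 15 of the 16 libraries.

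Paludicola was the smallest label. It held 0.0552%, 0.0589%, 0.0311% and 0.0422% in WT healthy, 0, 0.0157%, 0.00533% and 0 in KO healthy, 0.0116%, 0, 0.0174% and 0.0135% in WT DSS and 0.00567%, 0, 0.0108% and 0.00661% in KO DSS replicates. Each WT healthy library was above all 12 others, but neither KO against WT in healthy mice (-2.77 ± 1.24, log2, SE, edgeR adjusted p = 0.200) nor DSS against healthy in WT (-1.46 ± 1.16, adjusted p = 0.383) passed. Several of these values lie near the limit that 3 reads set. Its member asv383, with 22, 13, 10 and 8 reads in WT healthy and none in WT DSS, lay at least 4.58-fold lower there (edgeR adjusted p = 0.0366). It entered the test through WT healthy alone and leaves it without any 1 WT healthy library, and the call was lost without any 1 WT DSS library, with DESeq2 and with no filter.

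The sum of sequences without a genus name showed no difference past the threshold in the 4 pairwise comparisons. It was 0.941%, 1.34%, 0.751% and 1.10% in WT healthy, 0.458%, 0.460%, 0.371% and 1.17% in KO healthy, 0.577%, 0.230%, 0.495% and 0.496% in WT DSS and 0.187%, 0.266%, 0.509% and 0.365% in KO DSS replicates. All 4 fitted differences were below 0, from -0.53 ± 0.53 (log2, SE) for KO against WT in healthy mice (edgeR adjusted p = 0.542) to -0.81 ± 0.53 for DSS against healthy in KO (adjusted p = 0.249). Of the family's own reads they held, on average, 28.1% in WT healthy, 57.8% in KO healthy and 5.17% in KO DSS mice.

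Among these unnamed ASVs, asv61 held 0.288%, 0.426%, 0.280% and 0.416% in WT healthy and 0.0347%, 0.0205%, 0.0261% and 0.0933% in WT DSS replicates. All WT DSS values were lower, a fall of -2.55 ± 0.67 (log2, SE), 8.08-fold between means (edgeR adjusted p = 0.0161), lost with no filter and without replicate 1 of WT healthy or of WT DSS; without WT DSS replicate 3 the WT DSS mean was 0.0271% in place of 0.0436%. Asv84 held 0.151% to 0.462% in WT healthy and 0.0432% to 0.0684% in KO healthy libraries, without overlap, but -2.22 ± 0.85 did not pass (edgeR adjusted p = 0.128). Its WT DSS values were 0.0446%, 0.0137%, 0.210% and 0.0286%, a mean of 0.0743% that was 0.0290% without replicate 2, and -1.39 ± 0.82 from WT healthy to WT DSS did not pass (edgeR adjusted p = 0.251). Asv101, with the deposited species name Clostridium leptum, had 29, 67, 90 and 276 reads in KO healthy and 14, 15, 13 and 0 in KO DSS libraries, and -3.48 ± 1.30 missed the threshold (edgeR adjusted p = 0.0561). Asv136 had 83, 38, 115 and 103 reads in WT DSS and none in any KO library, at least 28.2-fold lower in KO under DSS (edgeR adjusted p = 0.0271), a call lost without WT DSS replicate 2 or any 1 KO DSS library. It met the filter through WT libraries alone, so this difference is a description. In WT healthy it was read in replicates 1 and 3 only, with 116 and 17 reads, and the difference from KO healthy did not pass (edgeR adjusted p = 0.0845).

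**Figure D3:**
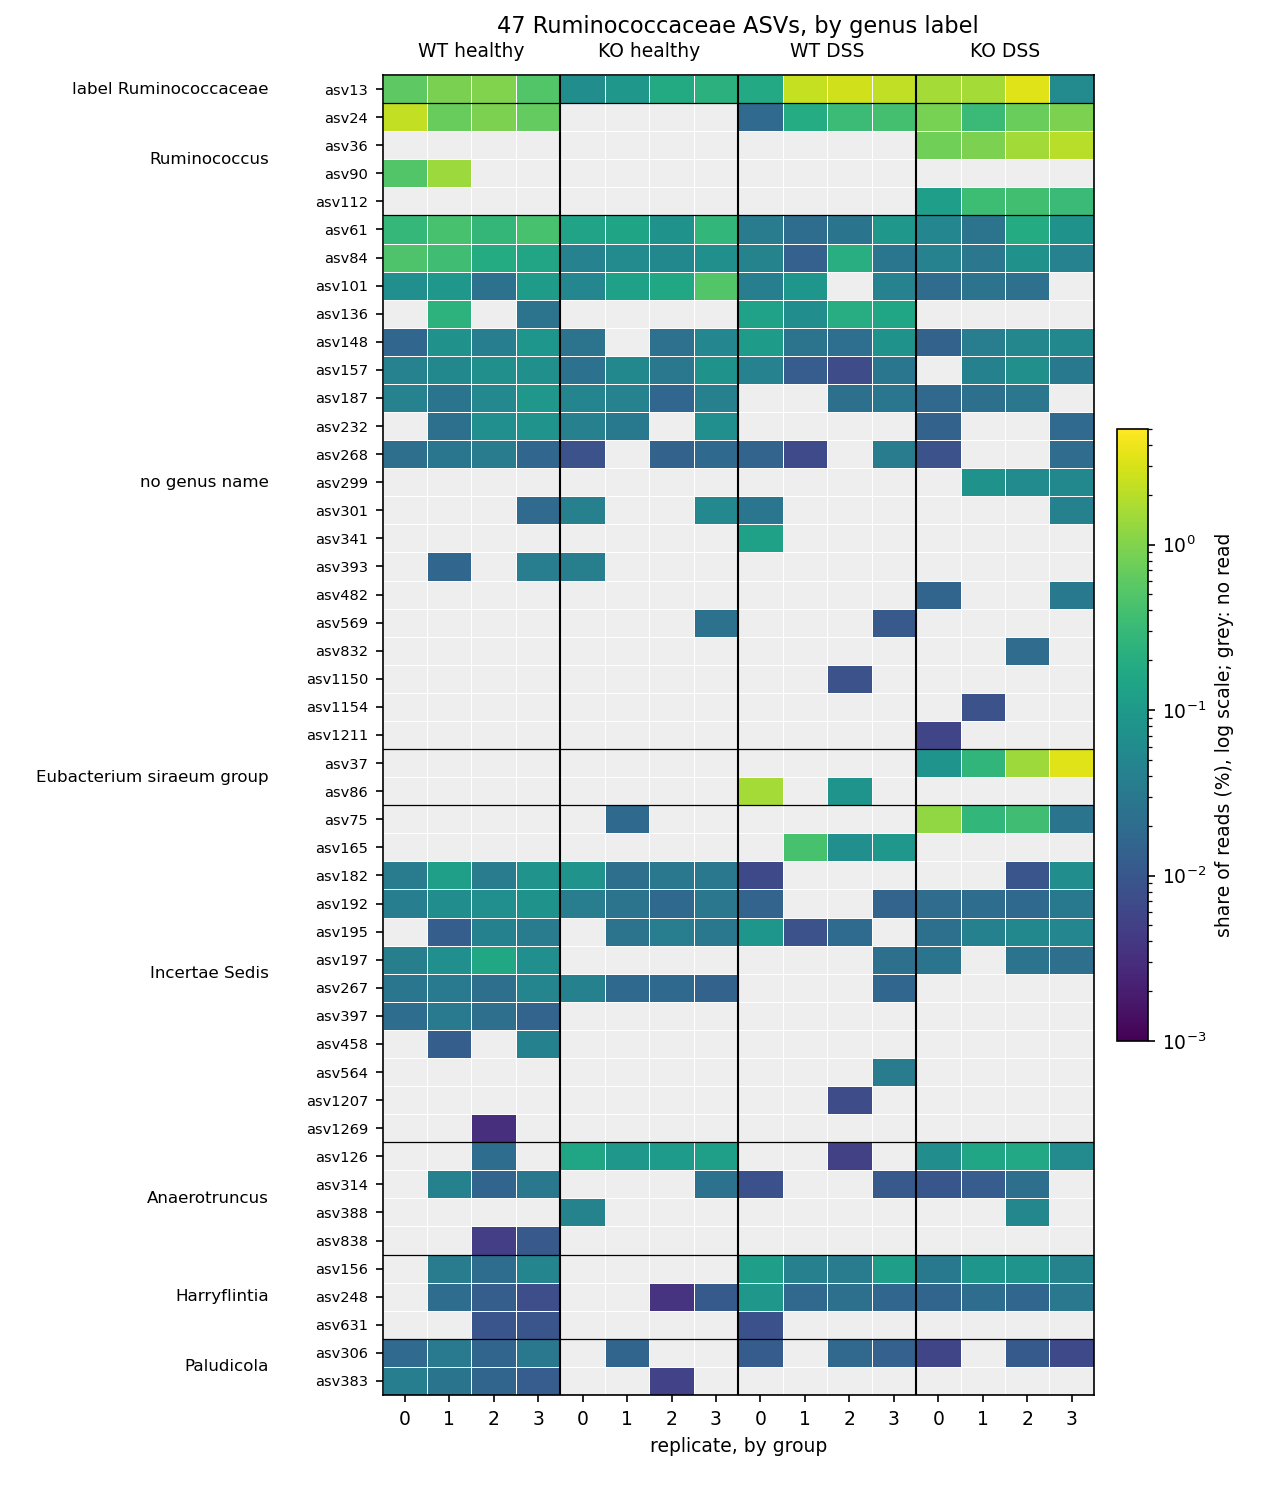
Share of reads (%, logarithmic colour scale; grey, no read) of the 47 Ruminococcaceae ASVs, grouped by genus label, in each of the 16 libraries. Asv36, asv112 and asv37 are coloured in all KO DSS libraries and in none of the other 12, and asv13 is coloured in all 16.

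Reads of the family were split between ASVs shared by all groups and ASVs of a single group. The 16 ASVs read in all 4 groups held 49.1% of the family's reads, and 3 ASVs were read in all 16 libraries. The 19 ASVs read in 1 group only held 27.7%. Of these, 8 were read in KO DSS only (20.3% of family reads), 6 in WT DSS only (4.27%), 5 in WT healthy only (3.12%) and none in KO healthy only. Asv36, asv37 and asv112 were the 3 members with reads in all 4 KO DSS libraries and nowhere else. In all, 8 members, with 132 reads between them, were seen in 1 library each. The share of all 1330 ASVs read in 1 group only is not given here. These counts therefore do not show whether such ASVs are more common in the family than elsewhere.

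Replacement of 1 ASV by another of the same label was counted where, between 2 groups, each ASV had reads in at least 3 of 4 libraries of its own group and none in the other. By this criterion Incertae_Sedis asv75 (KO DSS, 4 libraries, mean 0.470%) stood against asv165 (WT DSS, 3 libraries, 0.145%), and the unnamed asv299 (KO DSS, 3 libraries, 0.0474%) against asv136 (WT DSS, 4 libraries, 0.139%). Between WT healthy and WT DSS, asv397 (4 libraries, 0.0223%) stood against asv165, and between KO healthy and KO DSS, asv267 (4 libraries, 0.0228%) against asv197 (3 libraries, 0.0184%). Asv267 and asv197 did not exclude each other, since both were read in all 4 WT healthy libraries and in WT DSS replicate 3. Where read in KO libraries, asv267 had 8 to 24 reads and asv197 13 to 19. No pair met the criterion between KO and WT healthy mice. Of 7 labels of the family with at least 2 ASVs, 2 had such a pair between genotypes under DSS and 1 each between conditions in WT and in KO mice. Over all 163 labels with at least 2 ASVs the counts were 8, 6 and 5, and 3 for KO against WT in healthy mice. The shares are not comparable as they stand. The family labels with a pair, Incertae_Sedis and the unnamed sequences, hold 12 and 19 ASVs, and more ASVs give more chances of a pair. ASVs seen in 1 library only, such as the 711 of WT DSS replicate 1, cannot meet the criterion but count towards the 163 labels. The siraeum pair of asv37 and asv86 fell short, because asv86 was read in 2 of 4 WT DSS libraries. In Ruminococcus, asv36 and asv112 joined asv24 in KO DSS and did not take its place.

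**Figure D4:**
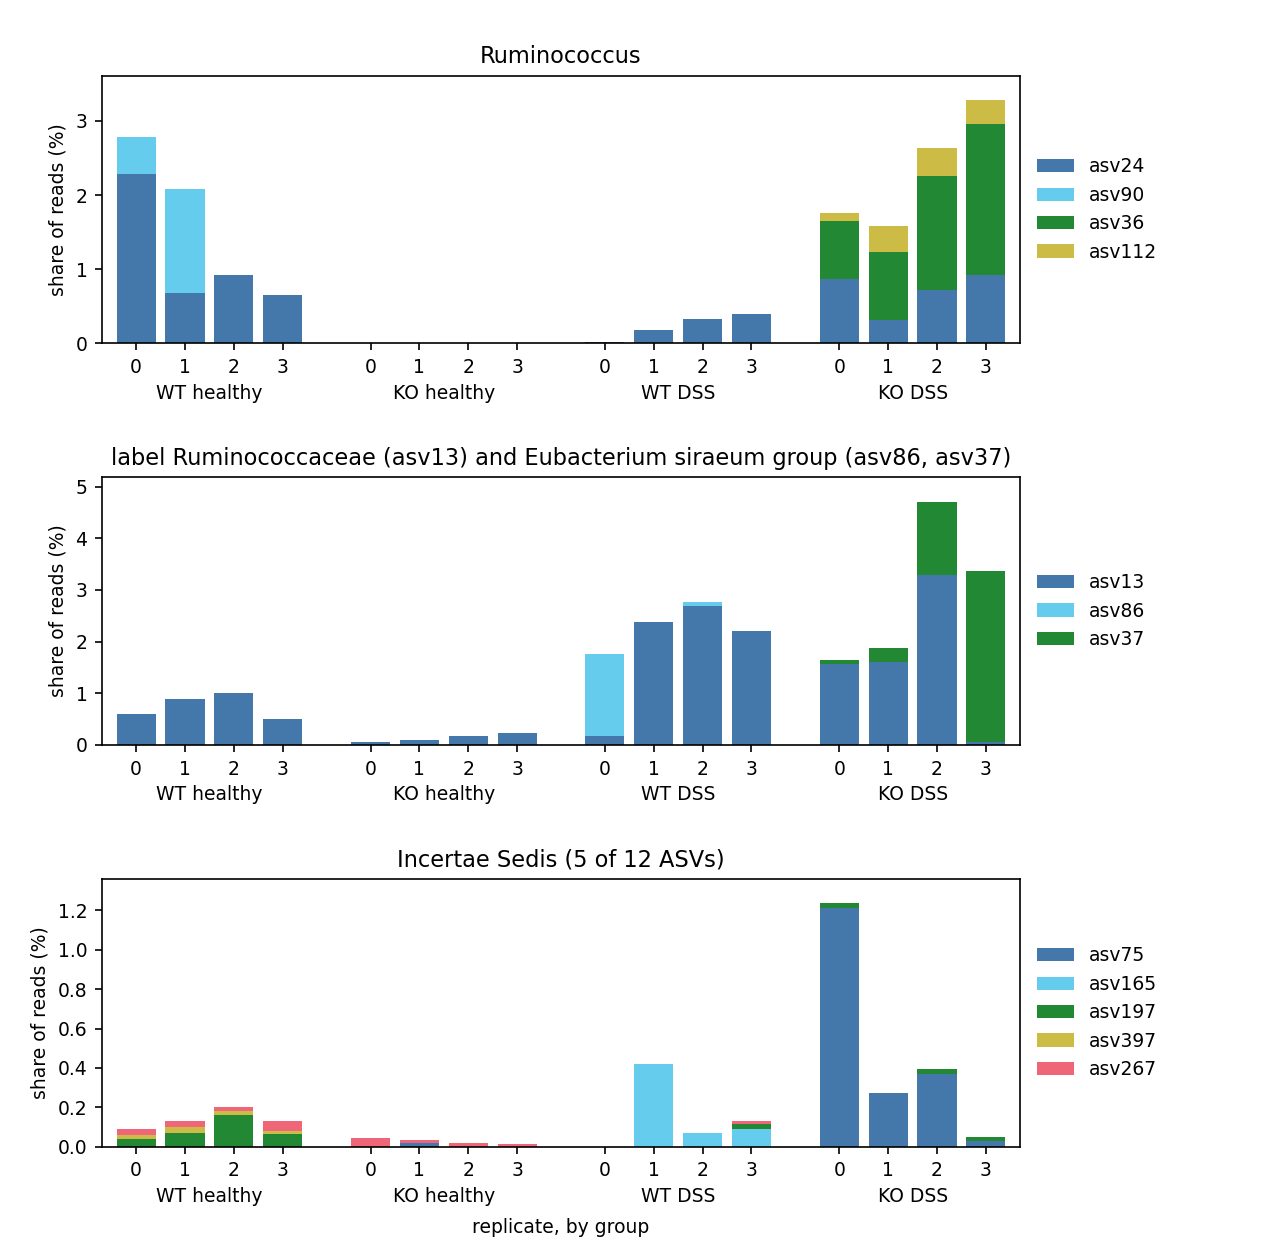
Share of reads (%) per library of the ASVs of Ruminococcus (top), of asv13 with the siraeum group (middle) and of 5 Incertae_Sedis ASVs (bottom), stacked by ASV, for replicates 0 to 3 of each group. In the bottom panel asv75 fills most of the KO DSS bars of replicates 0 to 2, and asv165 most of those of WT DSS replicates 1 to 3; in the middle panel WT DSS replicate 0 holds mainly asv86 and KO DSS replicate 3 mainly asv37.

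Over the 28 tested ASVs, differences were counted against those of all 308. For KO against WT in healthy mice, none was higher and 4 were lower (asv24, asv156, asv197 and asv397), where 3.25% of all tested ASVs were higher and 3.90% lower. Under DSS 5 were higher in KO (asv36, asv37, asv75, asv112 and asv126) and 1 lower (asv136), where 8.77% of all were higher and 6.17% lower. From healthy to DSS in WT mice none was higher and 3 were lower (asv61, asv383 and asv397), where 4.55% of all rose and 12.7% fell, near the 10.7% of the family that passed. In KO mice 8 rose and 1 fell, where 11% of all rose and 17.9% fell. The interaction was above 0 for 3 members (asv24, asv156 and asv197) and below 0 for none, where the shares over all were 3.25% and 2.27%. The calls between genotypes under DSS and those between conditions in KO mice rest on the same KO DSS libraries, and asv36, asv37 and asv112 had reads in no other group. Likewise asv383 and asv397 entered the test through WT healthy alone, so that these counts are a description and only asv61 of the 3 in WT mice was not chosen by the filter. Asv75 and asv136 met the filter in libraries of 1 genotype only, so their calls are descriptions as well.

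These counts moved when single libraries were left out. The 4 lower ASVs in healthy KO mice became 1 without KO healthy replicate 1 or 3, and 2 without WT healthy replicate 0, 1 or 3, KO healthy replicate 0 or 2, or KO DSS replicate 0, 2 or 3. The 6 calls between genotypes under DSS became 1 or 2 without any 1 KO DSS library, which took asv36, asv37 and asv112 out of the test. The 3 calls in WT mice became 0 without replicate 1 of WT healthy or of WT DSS, and 1 without WT healthy replicate 2 or 3. The 9 calls in KO mice became 4 without KO DSS replicate 0 and 5 without KO DSS replicate 3. The 3 interactions became 1, asv24, without any single library other than WT healthy replicate 0 and WT DSS replicate 3.

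By genus label, 1 of 8 passed for KO against WT in healthy mice (Ruminococcus, against 6.06% of all 66 tested labels). Under DSS 2 passed (Ruminococcus and Anaerotruncus, 13.6%). For DSS against healthy, 1 passed in WT mice (the siraeum group, 22.7%). In KO mice 5 did, all higher: Ruminococcus, the siraeum group, the name Ruminococcaceae, Harryflintia and Incertae_Sedis (34.8% of all, 14 higher and 9 lower). The interaction passed for 1 (Ruminococcus, 4.55%). These shares over all labels count both directions. The siraeum label entered through DSS libraries alone, so its calls are descriptions. The label for DSS in WT mice, 12.5% of the 8, is below the background share. Ruminococcus was joined by a second label in healthy mice without WT healthy replicate 0, and the 2 labels under DSS became 1 without WT healthy replicate 1, WT DSS replicate 3 or KO DSS replicate 0, 2 or 3.

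The median log2 difference over tested ASVs with reads in either group was -0.93 for the family and -0.28 for all in KO against WT healthy mice, and 0.56 against 0.20 under DSS. For DSS against healthy it was -1.31 against -0.78 in WT and 0.15 against -0.14 in KO mice. The related Oscillospiraceae, with 50 tested ASVs, had 0 higher and 1 lower in healthy KO mice, 3 and 0 under DSS, 1 and 4 for DSS in WT and 3 and 2 for DSS in KO mice. The Lachnospiraceae, with 122, had 4 and 2, 10 and 8, 4 and 25, and 11 and 32 in the same order. No test compared the families.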

How the data were processed

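Stool DNA was extracted, amplified over 16S rRNA gene regions V3 and V4 with primers 341F and 805R, and sequenced in 16 libraries, per the labels. Cutadapt appears in the submitters' processing notes with no version. Denoiser, classifier and database are not given in the sources used here. Values in the deposited feature table are counts of reads for each sequence, not normalized, beside 7 ranks of taxonomy, and the deposited taxonomy table gives the confidence of each assignment as a fraction. Sequences are called ASVs and were numbered by total reads, ties by file order. Of the 340 genus labels, those for ASVs without a genus name, or called uncultured, are named after the next rank that has a name.

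Libraries were grouped by genotype and condition in the labels. Shares are percent of all reads of a library. EdgeR 4.0.16 (R 4.3.3) was run on the counts as 1 quasi-likelihood fit of 4 groups with TMM factors, over features reaching 5 reads in 4 or more libraries, library sizes being the reads of those features. The 5 comparisons were between genotypes in each condition, between conditions in each genotype, and the interaction. The family sum had no test. The step was tested on simulated data. Shares were computed in Python 3.11.15 with pandas 2.3.3 and numpy 2.4.6, and figures drawn with matplotlib 3.10.9. Replicates differed by more than counting noise.

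Alternatives were RLE factors, total counts only, DESeq2 1.42.0, no filter, a filter of 20 reads, each library left out in turn, and the replicate number as a block. For KO against WT the block was the number alone, shared by both genotypes, so that it joined libraries of different animals. For DSS against healthy and the interaction it was genotype and number together. Library sizes over all reads were added after the data had been seen. Replicate numbers were not used as pairs, because the labels do not say whether a number marks 1 animal. Deviations of same-numbered DSS and healthy libraries of 1 genotype had correlations of -0.144 to 0.0721 (8 pairs, 0 over 0.1). For same-numbered KO and WT libraries of 1 condition, which cannot be 1 animal, they were -0.18 to 0.0937 (8 pairs, 0 over 0.1). Low correlations cannot decide whether numbers mark animals, since samples of 1 animal need not deviate together. Taxa named are the genus labels tested, ASVs past the threshold in any comparison, the 10 ASVs with most reads, and replacing ASVs; asv182 was named beyond this after its values were seen. The members and this rule were chosen with earlier results of these data known.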

Additional observations from a re-analysis of the deposited data

Results flagged for a closer look

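In groups of 4 libraries, a single library was set apart where its gap to the next, over the group's range, exceeded Dixon's 95% critical value. This was so for 17 values, which fell on 10 libraries, over 73 sets of 4 libraries looked at; chance gives about 1 in 20, except for the 6 values whose other 3 libraries had no read, where any read sets the library apart (asv75, asv126 in both groups, asv197, asv383, and asv267 in WT DSS). KO healthy replicate 3 had the highest family share of its group (1.65%) and the highest sum of ASVs without a genus name (1.17%). WT healthy replicate 0 stood apart for Anaerotruncus (0), for Incertae_Sedis (0.159%, the lowest) and for asv24 (2.29%, the highest), and KO healthy replicate 0 for Incertae_Sedis (0.157%, the highest) and asv267 (0.0415%). WT DSS replicate 0 stood apart for the siraeum group, which is asv86 alone there (1.60% for both). WT DSS replicate 2 did so for asv84 (0.210%) and asv126 (0.00521%), and WT DSS replicate 3 for asv197 (0.0226%) and asv267 (0.0165%). The others were asv75 in KO healthy replicate 1 (0.0177%), asv126 in WT healthy replicate 2 (0.0202%), asv136 in WT healthy replicate 1 (0.236%) and asv383 in KO healthy replicate 2 (0.00533%).

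The genotype effect differed between DSS and healthy mice, by edgeR's test of the interaction, for Ruminococcus (15.69, log2), asv24 (13.61), asv197 (9.95) and asv156 (6.12). The calls of asv197 and asv156 (edgeR adjusted p = 0.0468 for each) were lost in 18 of 23 other settings each. Those of Ruminococcus and asv24 were lost in none. All 4 had no read in KO healthy libraries.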

How the results depend on the processing

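Of 35 called values, 15 kept their call in every one of up to 23 settings in which they could be fitted, 20 lost it in at least 1, and none turned direction. The calls of asv36, asv37 and asv112 among the 15 could be fitted in 19 settings only. Leaving out any 1 KO DSS library takes these ASVs out of the test. These calls, that of asv75 against WT DSS and that of the siraeum label in KO mice are descriptions. Of the 35, 14 were lost with no filter, 3 with DESeq2 and 15 with the replicate block. With the block, DSS in KO mice lost the labels Ruminococcaceae and Incertae_Sedis and asv13, asv197 and asv267. DSS in WT mice lost asv61, asv383 and asv397. KO against WT lost asv156, asv197 and asv397 in healthy mice, and Ruminococcus and Anaerotruncus under DSS. The interaction lost asv156 and asv197. Counts of ASVs past the threshold, with the main count first, were as follows. KO against WT in healthy mice gave 4, with 2 under the replicate block and 1 to 5 when a library was left out. KO against WT under DSS gave 6, with 1 to 6 when a library was left out. DSS in WT gave 3, with 6 by DESeq2, 0 under the replicate block and 0 to 4 when a library was left out. DSS in KO gave 9, with 4 to 10 when a library was left out. The interaction gave 3, with 1 by RLE factors, 6 by DESeq2, 1 with no filter, 1 under the replicate block and 1 to 2 when a library was left out. Counts of genus labels were 1, 2 by DESeq2 and 1 to 2 when a library was left out for KO against WT in healthy mice; 2, 1 with no filter, 0 under the replicate block and 1 to 2 under DSS; 1, 2 by total counts only, DESeq2 and no filter, and 0 to 1 for DSS in WT; and 5, 3 with no filter, 3 under the replicate block and 4 to 5 for DSS in KO. As a share of Firmicutes the family held 6.55% in WT healthy, 1.84% in KO healthy, 7.13% in WT DSS and 12.1% in the KO DSS group. Total counts only moved the median over all features by up to 0.60 in size (log2). The cause of these changes was not tested, except that fewer KO DSS libraries take 3 ASVs under the filter. Depth limits members near 3 reads a library.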
